A study of Rattus norvegicus with 4 samples.

Results

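Hsf1, the heat shock transcription factor, and 4 chaperone genes, Dnaja1, Dnaja2, Hspa9 and Cryab, were followed in rat liver at 1 h after the common bile duct was tied. They were chosen by name, as all probes to which the platform annotation gives exactly 1 gene symbol, and are 9 of the 1936 probes on the array. Dnaja1 and Cryab have 2 probes each, Hspa9 has 3, and Hsf1 and Dnaja2 have 1 each. The rats were male Sprague-Dawley animals, and none carried a genetic change or a drug treatment that the labels name. Both groups were opened under ether; in the ligated group the duct was tied, and in the sham group it was exposed and not tied. Total RNA of the livers of 3 rats per group was mixed, so a value stands for a pool and shows no spread between animals. Each of 4 two-colour cDNA arrays carried both samples, with the ligated sample in Cy5 on arrays 1 and 3 and in Cy3 on arrays 2 and 4. The comparison asks which liver genes respond in the first hour of blocked bile flow.

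Hsf1 is kept inactive by chaperones in unstressed cells. When unfolded proteins occupy those chaperones, it forms trimers, binds heat shock elements in promoters and raises the transcription of chaperone genes. Dnaja1 and Dnaja2 are cytosolic J-domain proteins that hand unfolded proteins to the chaperone Hsp70 and start its ATPase. Hspa9, or mortalin, is the Hsp70 of mitochondria and pulls imported proteins into the matrix. Cryab is a small heat shock protein that holds unfolded proteins in solution and is best known from lens and muscle.

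Of the 5 genes, 2 were matched in the RefSeq promoter table of the GRCr8 assembly, Dnaja1 and Hspa9. Their promoters are shown because the core of the heat shock element, to which Hsf1 binds, can be read in them. Each runs 5′ to 3′ from 250 bases before to 50 bases after the start site that the table uses. Capitals mark every match to GAANNTTC or TTCNNGAA, the 2 forms of the element's core, each of which reads the same on both strands. The Dnaja1 stretch is chr5:60638154-60638453 on the plus strand, and the Hspa9 stretch is chr18:26828349-26828648 on the minus strand.
Dnaja1: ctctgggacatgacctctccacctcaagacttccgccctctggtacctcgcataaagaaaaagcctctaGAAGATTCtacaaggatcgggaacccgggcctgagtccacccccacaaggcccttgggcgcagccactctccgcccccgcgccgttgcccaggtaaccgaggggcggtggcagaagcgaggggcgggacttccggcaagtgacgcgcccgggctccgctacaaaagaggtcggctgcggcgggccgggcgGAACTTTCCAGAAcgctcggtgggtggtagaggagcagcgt
Hspa9: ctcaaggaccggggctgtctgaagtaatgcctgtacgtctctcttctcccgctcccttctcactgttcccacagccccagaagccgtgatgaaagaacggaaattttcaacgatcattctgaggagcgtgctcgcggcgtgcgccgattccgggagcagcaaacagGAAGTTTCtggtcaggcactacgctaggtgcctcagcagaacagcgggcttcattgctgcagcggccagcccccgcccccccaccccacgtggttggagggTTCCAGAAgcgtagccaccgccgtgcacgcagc

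Dnaja1 held 3 matches. GAAGATTC lies 181 to 174 bases before the start site, and GAACTTTC and TTCCAGAA overlap between bases 10 and 22 after it. Hspa9 held 2 matches, GAAGTTTC at 84 to 77 bases before the start site and TTCCAGAA at bases 18 to 25 after it. Of 33469 promoters of this length, 15.9% held a match to either form, 8.59% to GAANNTTC and 8.77% to TTCNNGAA. The letters TTCCAGAA, which both promoters hold just after the start site, were found in 1.25% of them. These letters were picked from the matches above, so their share is not a test of the 2 promoters. These matches are descriptions of the letters, and binding was not measured.

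None of the 9 probes passed the test for a difference between ligated and sham liver (limma, Benjamini-Hochberg adjusted p under 0.05 over all 1936 probes; 1 of 9 had an unadjusted p under 0.05). Over all probes, 5.73% passed and 14.3% had an unadjusted p under 0.05. The estimates of the 9 probes lay between -0.24 and 0.0095 on the deposited log scale, whose base is unknown, with a median of -0.024, against -0.020 over all probes. A value below 0 is lower after ligation. The estimate was below 0 for 8 of the 9 probes, and for 60.3% of all probes. The smallest estimate that passed anywhere on the array was 0.258 in size.

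**Figure D1:**
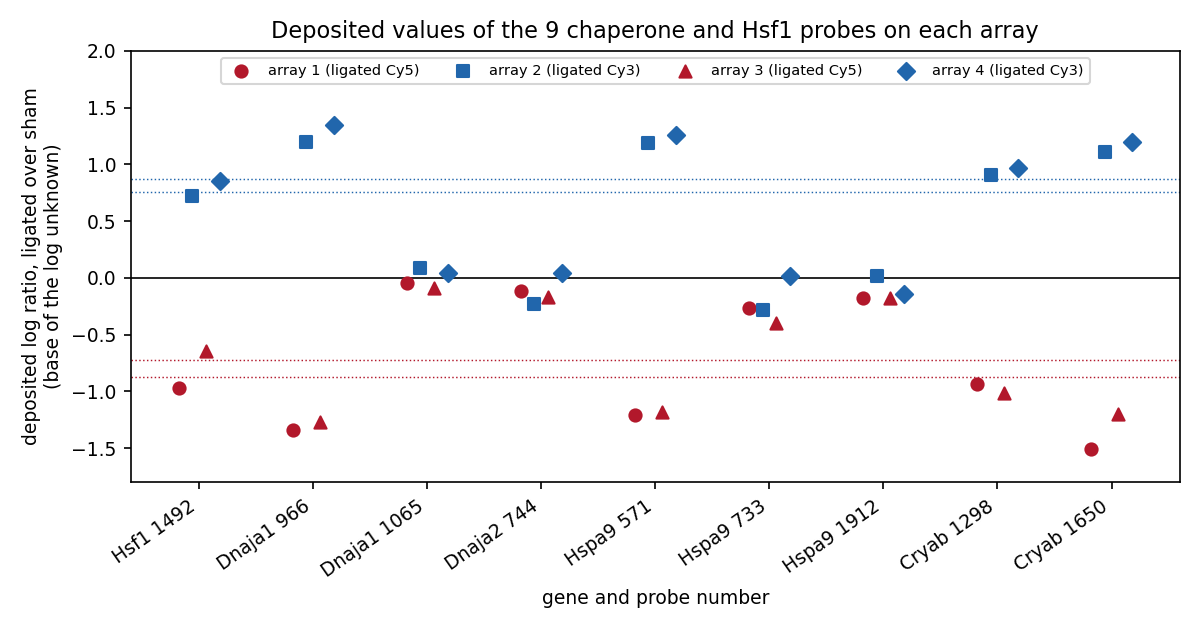
Deposited log ratio of the ligated over the sham sample (vertical axis, base of the log unknown) for each of the 9 probes (horizontal axis), with 1 point per array, red where the ligated sample carried Cy5 and blue where it carried Cy3. Dotted lines are the medians of all probes on each array. As deposited, the Dnaja1, Dnaja2 and Hspa9 probes 1065, 744, 733 and 1912 lie between -0.40 and 0.084, while the other 5 part by dye. After centring on these medians, probes 1065, 744, 733 and 1912 part by dye too.

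Read as ligated over sham, the deposited values turned their sign with the dye. Their medians over all probes were -0.88 and -0.73 on arrays 1 and 3 and 0.75 and 0.87 on arrays 2 and 4, and arrays of opposite dye orientation had correlations across probes from -0.93 to -0.77. Each array was therefore centred on its own median, and the fit held a term for the dye. Nothing in the labels settles the direction of the ratio. It was taken as ligated over sham, since the labels put sham in the first channel and ligated in the second on every array, and with the opposite direction every sign given here would turn. If the values were Cy5 over Cy3 instead, the contrasts for the dye and for the operation would exchange places, and 7 of the 9 probes and 1599 of all 1936 would pass. The labels do not settle between these readings. The arrays give ratios and not levels, so the liver label could not be checked against marker genes, and in pooled tissue fewer cells of a type and less RNA per cell cannot be told apart. None of the 5 probes of 4 hepatocyte marker genes passed in limma (-0.24 to -0.042, with 2 at an unadjusted p under 0.05). Of 9 probes of 6 marker genes of other cell types, 1 of Col1a1 was called higher (0.34 ± 0.084). Among the same 9, 1 of Pf4 was called lower (-0.30 ± 0.093). Over all probes 0.93% were called higher and 4.8% lower. The second probe of Col1a1 had 0.095 ± 0.084 and that of Pf4 0.14 ± 0.084, and neither passed. What part these cell types had in the values below was not tested. The Pf4 call was lost without array 1, 2 or 3 and the Col1a1 call without array 1 or 3 (-0.33, -0.045 and -0.28, and 0.40 and 0.28). With a dye curve within runs of probe numbers, described below, Pf4 was also lost (-0.045 ± 0.034, adjusted p = 0.536) and Col1a1 passed (0.36 ± 0.061, adjusted p = 0.00474).

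Hsf1, the regulator of the group, was measured by probe 1492. Its deposited log ratios were -0.97, 0.72, -0.64 and 0.85 on arrays 1 to 4, close to the median of each array. After centring they were -0.097, -0.034, 0.086 and -0.022, so 3 arrays were slightly below 0 and 1 was above. The estimate was -0.017 ± 0.084 (SE, n = 4 arrays; limma adjusted p = 0.991). Its 95% interval ran from -0.18 to 0.15, which is 0.881-fold to 1.11-fold if the base of the log is 2. The mRNA says nothing of whether the protein was active, since Hsf1 is switched on by trimer formation and not by its transcript.

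Dnaja1, the first of the J-domain proteins, gave a pair of probes that differed widely as deposited. Probe 966 had -1.34, 1.20, -1.27 and 1.35 on arrays 1 to 4, with the sign set by the dye. Probe 1065 had -0.043, 0.084, -0.087 and 0.042, close to 0 on all arrays. After centring, probe 966 had -0.47, 0.45, -0.54 and 0.48, and probe 1065 had 0.83, -0.67, 0.64 and -0.83. In spite of these differences the estimates for the operation differed by only 0.017 between the probes. They were -0.022 ± 0.084 for probe 966 and -0.0055 ± 0.084 for probe 1065 (limma adjusted p = 0.991 for each). The intervals ran from -0.19 to 0.14 and from -0.17 to 0.16. They cover the spread among arrays of pooled RNA and not among animals. How well either probe registers a change of Dnaja1 was not tested, so they set no limit to such a change.

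Dnaja2, the other J-domain protein, had deposited values of -0.11, -0.23, -0.17 and 0.046 at probe 744. All arrays lay near 0, with 3 below and array 4 just above. After centring the values were 0.76, -0.99, 0.56 and -0.83, which part by dye. The estimate was -0.12 ± 0.084, with an interval from -0.29 to 0.044 (limma adjusted p = 0.629). Of all probes, 23.5% had an estimate of larger size. It was -0.072 without array 3 and -0.17 without array 1, the ends of the range with 1 array left out, and -0.015 ± 0.036 with a dye curve within runs of probe numbers.

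Hspa9, the mitochondrial Hsp70, held the lowest estimate of the group and also the only one above 0. Probe 733 had deposited values of -0.27, -0.28, -0.40 and 0.017, of which 3 were below 0 and array 4 was not. After centring, as used in the fit, the probe had 0.61, -1.04, 0.33 and -0.85, which part by dye. The arrays thus did not each show a decrease. Its estimate was -0.24 ± 0.085, with an interval from -0.41 to -0.070 (0.755-fold to 0.953-fold if the base is 2). With an unadjusted p of 0.00618 it did not pass after adjustment (limma adjusted p = 0.0906). Over all probes 7.59% had an estimate of larger size. The probe did pass without array 4 (-0.28 ± 0.086, limma adjusted p = 0.0111), in a fit in which all probes share an SE. In that fit 241 of the 1936 probes passed, 202 of them as lower. Probe 733 was also past the threshold when 242 probes with consecutive numbers were left out of the table (-0.27 ± 0.065, adjusted p = 0.00147). Those 242 probes hold 71 of the 93 lower calls, and the choice was made after the data were seen. Without them 135 of 1694 probes passed, 109 of them as lower. The range of the adjusted p of probe 733 over 15 settings, those that turn the sign of the values left out, was from 0.00147 to 0.9998.

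The estimates of the other Hspa9 probes were smaller in size than that of probe 733. Probe 1912 had -0.18, 0.019, -0.18 and -0.14 as deposited, with array 2 above 0 and the others below. After centring it had 0.70, -0.73, 0.55 and -1.01, which part by dye. Its estimate was -0.12 ± 0.084 (limma adjusted p = 0.629), with -0.054 without array 4, -0.19 without array 2 and -0.020 ± 0.035 with the dye curve within runs of probe numbers. Probe 571 had -1.21, 1.19, -1.18 and 1.26, which part by dye, and an estimate of 0.0095 ± 0.084 (adjusted p = 0.991). Probes 571 and 733 thus differed by 0.25 in their estimates, probes 571 and 1912 by 0.13 and probes 733 and 1912 by 0.11. From the differences within arrays, the SEs were 0.071, 0.058 and 0.12, so probes 733 and 1912 differed by less than the SE. Over 699 pairs of probes of the same gene, from 340 genes, the median difference was 0.088 and the 90th percentile 0.251. With the 3 probes averaged, Hspa9 had -0.12 ± 0.074 (limma adjusted p = 0.538 over 958 genes).

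Cryab, the small heat shock protein, parted by dye at both probes. Probe 1298 had -0.94, 0.90, -1.01 and 0.97 as deposited, and probe 1650 had -1.51, 1.11, -1.20 and 1.20. After centring, probe 1298 lay between -0.28 and 0.15 and probe 1650 between -0.64 and 0.35, and each had arrays on both sides of 0. The estimates were -0.024 ± 0.084 and -0.11 ± 0.084 (limma adjusted p = 0.991 and 0.748). They differed by 0.082, which is close to the median over pairs of probes of the same gene.

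**Figure D2:**
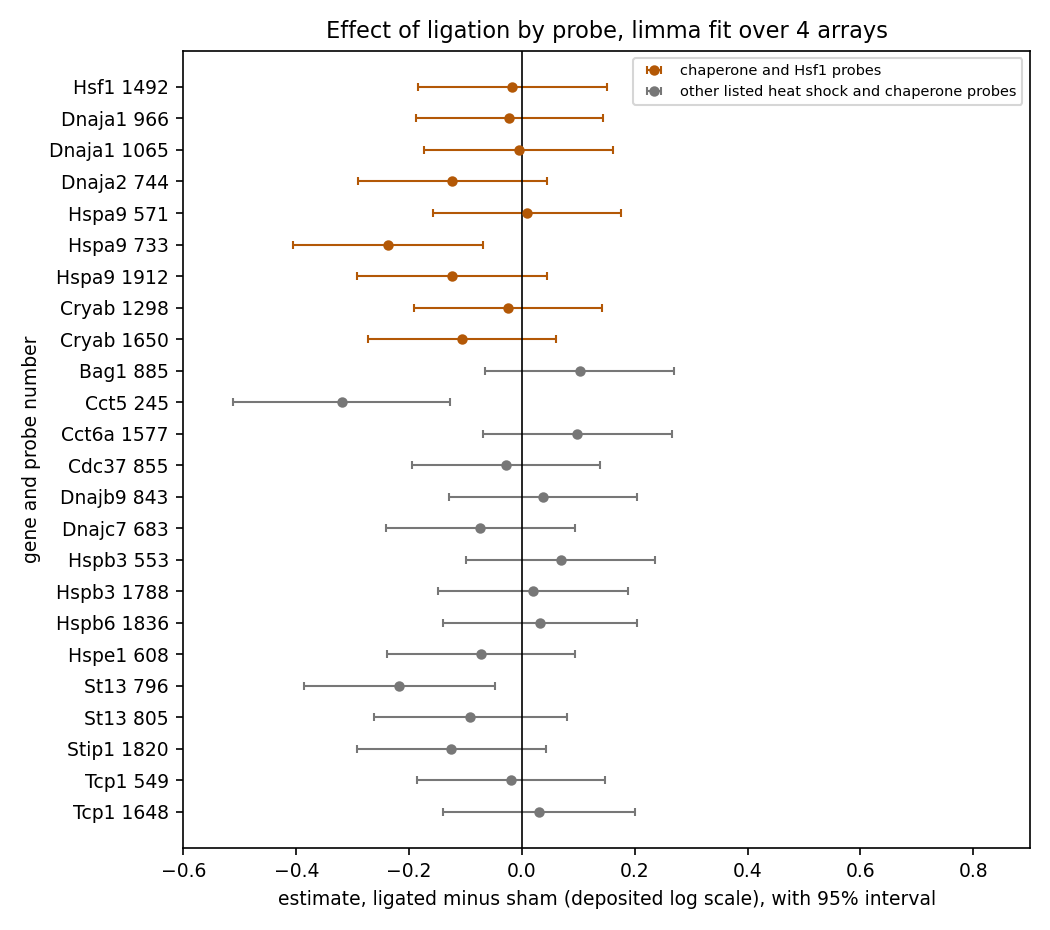
Estimate for ligated minus sham (horizontal axis, deposited log scale) with its 95% interval from the limma fit over 4 arrays, for the 9 probes of Hsf1, Dnaja1, Dnaja2, Hspa9 and Cryab (orange) and for 15 probes of other listed heat shock and chaperone genes (grey). The interval of Hspa9 probe 733 lies below 0, as do those of Cct5 and of St13 probe 796, and only Cct5 passed after adjustment.

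No probe of the 5 genes had the same sign on all 4 arrays, either as deposited (6.92% of all probes did) or after centring (1.91%). Of the 111 probes that limma called, 13 had the same sign after centring, so this count tells little of the operation. The dye contrast, the sum of the deposited values on arrays 1 and 3 less that on arrays 2 and 4, divided by 4, varied more among the 9 probes than the estimate for the operation did. In the Cy5 over Cy3 reading it would stand for the operation only if the arrays were not centred. After centring, that reading gave 0.71 for Hspa9 probe 733, 0.78 for Dnaja2 and 0.011 for Hsf1. As deposited, the contrast was -1.29 for Dnaja1 probe 966, -1.25 for Cryab probe 1650 and -1.21 for Hspa9 probe 571. For Cryab probe 1298 it was -0.95 and for Hsf1 -0.80. For Hspa9 probes 733 and 1912 it was -0.10 and -0.058, for Dnaja1 probe 1065 it was -0.064 and for Dnaja2 it was -0.024. The contrast thus differed by 1.23 between the probes of Dnaja1 and by up to 1.15 between those of Hspa9. Over all 699 pairs of probes of the same gene the median difference was 0.305 and the 90th percentile 1.11. The Cryab probes, at 0.299, and Hspa9 probes 733 and 1912, at 0.042, lay below that median, and the other 3 of the 5 pairs lay between 1.11 and 1.23.

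The estimate for the operation differed between probes of different dye contrast, without a steady order. Among the 570 probes (29.4% of all) with a dye contrast within 0.3 of 0, a limit set after the values were seen, the median estimate was -0.071 and 73.9% were below 0. Among the 891 probes with a dye contrast below -0.9 the median was -0.013 and 57.7% were below 0. The 475 probes that remain, Hsf1 among them, had a median of 0.0030, with 48.8% below 0. Hspa9 probes 733 and 1912, Dnaja2 and Dnaja1 probe 1065 belong to the first of these sets. In that set 9.65% of the probes had an estimate below that of Hspa9 probe 733. After each array was set against a smooth curve on the dye contrast, the median of that set was -0.0031. Hspa9 probe 733 then had -0.19 ± 0.067 and did not pass (limma adjusted p = 0.532). With such a curve drawn within each of 16 runs of consecutive probe numbers it had -0.14 ± 0.039 (adjusted p = 0.0579), and again 0 of the 9 probes passed, against 7.02% of all, 3.67% higher and 3.36% lower (2 of the 9 had an unadjusted p under 0.05).

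**Figure D3:**
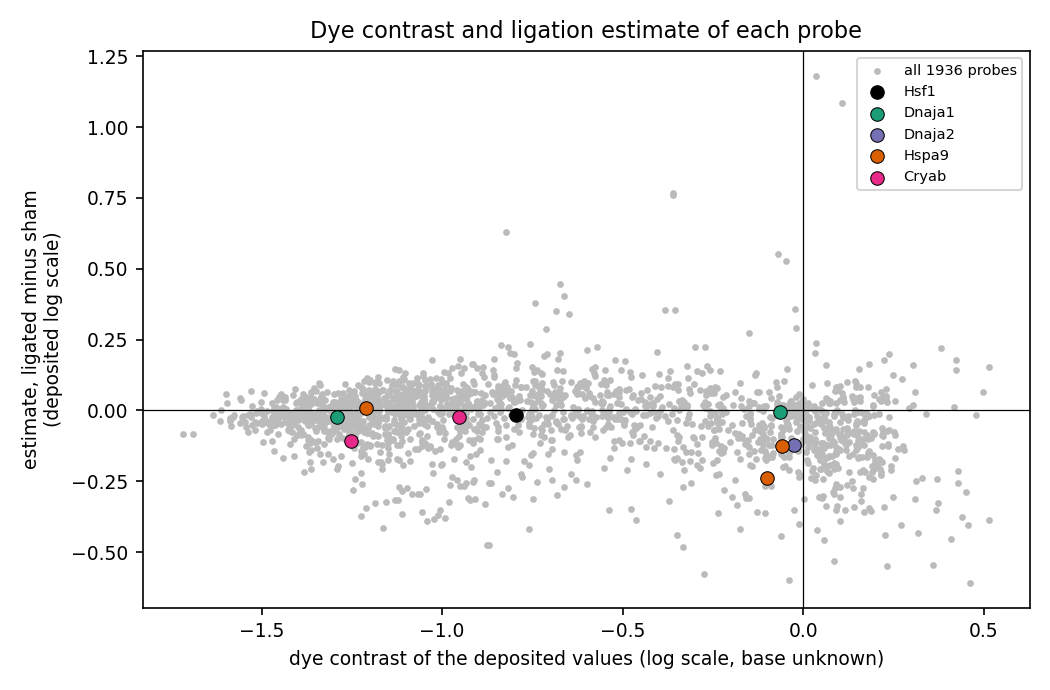
Estimate for ligated minus sham (vertical axis) against the dye contrast of the deposited values (horizontal axis), both on the deposited log scale, with 1 point per probe. The 1936 probes are grey and the 9 probes of the 5 genes are coloured by gene; Dnaja1 and Hspa9 each have probes both near 0 and below -1.2 on the horizontal axis.

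The other cytosolic and mitochondrial chaperone genes and their partners were read from a list of 73 genes, of which 12 were measured by 15 probes. Of these probes limma called 0 higher and 1 lower (0 and 2 at an unadjusted p under 0.05), against 0.93% and 4.8% of all probes, and their median estimate was -0.019. The call was Cct5, a subunit of the chaperonin that folds actin and tubulin, at -0.32 ± 0.096 (limma adjusted p = 0.0301). Its deposited values were -0.51, -0.55, -0.86 and 0.66, with array 4 far above the others. The call was lost with the dye curve per run of probe numbers (-0.056 ± 0.059, adjusted p = 0.695), and without array 1, 2 or 3 (-0.44, -0.046 and -0.20; adjusted p = 0.124, 0.973 and 0.999). The other measured subunits of this chaperonin did not pass, with 0.098 ± 0.084 for Cct6a and -0.019 and 0.030 (each ± 0.084 to 0.086) for the probes of Tcp1.

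Among the partners of Hsp70 and Hsp90, St13, which stabilises the ADP state of Hsp70, had -0.22 ± 0.085 at probe 796 and -0.092 ± 0.086 at probe 805 (limma adjusted p = 0.142 and 0.851). Stip1, which links Hsp70 to Hsp90, had -0.13 ± 0.084, and Dnajc7, another J-domain protein that binds both, had -0.074 ± 0.084. Bag1, a nucleotide exchange factor of Hsp70, had 0.10 ± 0.084, and Cdc37, which brings kinases to Hsp90, had -0.028 ± 0.084. None of these passed (adjusted p = 0.616, 0.923, 0.773 and 0.991). Hspe1, the lid of the mitochondrial chaperonin and so a neighbour of Hspa9 in function, had -0.073 ± 0.084 (adjusted p = 0.924). The small heat shock proteins Hspb3 and Hspb6, relatives of Cryab, had 0.068 and 0.020 (each ± 0.084) at the probes of the first and 0.032 ± 0.086 at that of the second. Dnajb9, listed here although its protein sits in the endoplasmic reticulum, had 0.037 ± 0.084.

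In the list of 16 genes of endoplasmic reticulum chaperones and stress, 6 were measured by 1 probe each, and all 6 estimates were below 0. So were 60.3% of all probes, and 73.9% of those with a dye contrast within 0.3 of 0. All of the 6 but Pdia4 have a dye contrast within that limit. Of the 6, 1 passed as lower, against 4.8% of all probes, the transcription factor Xbp1 (-0.58 ± 0.084, limma adjusted p = 4.57e-07). Its probe lies among the 242 consecutive probe numbers that hold 71 of the 93 lower calls. The probes of Cct5 and Egr1 and the Pf4 probe called lower lie there too. The disulfide isomerase P4hb had -0.19 ± 0.084 (adjusted p = 0.210), and Pdia3, another, had -0.044 ± 0.085, which turned to 0.027 ± 0.040 with the dye curve per run of probe numbers. Of 10 further genes with an early or heat shock response, 4 were measured by 5 probes, and 1 passed as higher, against 0.93% of all probes. It was Fos, an early transcription factor (0.38 ± 0.084, adjusted p = 0.00139). The Xbp1 call held without each array in turn and with the dye curve per run of probe numbers (-0.45 ± 0.035). That of Fos held with the curve (0.30 ± 0.041) but was lost without array 1 or 3 (0.44 and 0.32; adjusted p = 0.124 and 0.999). Egr1, an early zinc finger transcription factor, did not pass (0.20 ± 0.094, adjusted p = 0.269), but did with the curve (0.46 ± 0.038, adjusted p = 2.62e-05). The estimates of Xbp1 and Fos were larger in size than any of the 9 probes had.

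The genes whose 4 centred values lay nearest to those of each probe were named by Euclidean distance over the 4 arrays, as a description in which the dye takes the largest part. The nearest was Pex6 for Hsf1 (distance 0.0936), Mdk for Dnaja1 probe 966 (0.0651), Cltc for Dnaja1 probe 1065 (0.0703) and Psmd2 for Dnaja2 (0.0949). For Hspa9 it was Prkcb at probe 571 (0.0291), Cyp2e1 at probe 733 (0.144) and Rheb at probe 1912 (0.0487). For Cryab it was Nr3c1 at probe 1298 (0.0775) and Plcl1 at probe 1650 (0.141). Median distances from these probes to all others were between 0.878 and 1.67. Probe 733 of Hspa9 had its next nearest gene in Cyp2j3, whose probe also lies among the 242 consecutive probe numbers. Cyp2j3 was called lower (-0.27 ± 0.085, limma adjusted p = 0.0443). That call was lost without array 1, 2 or 3 (-0.32, -0.18 and -0.21) and with the dye curve per run of probe numbers (-0.12 ± 0.036, adjusted p = 0.0689).

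**Figure D4:**
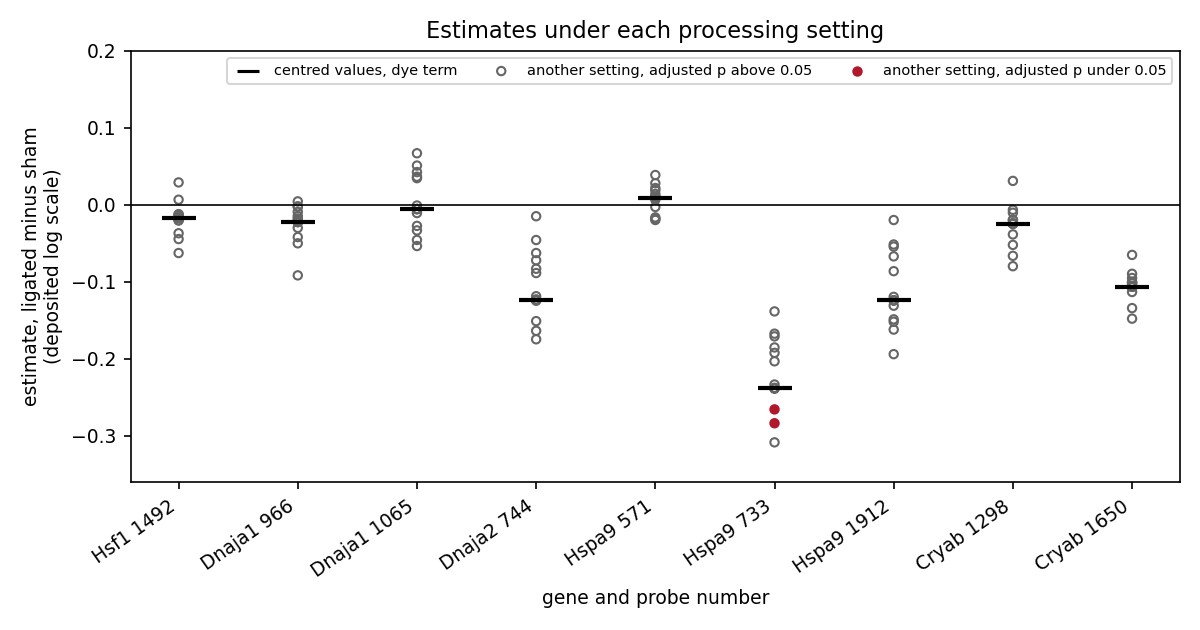
Estimates for ligated minus sham (vertical axis, deposited log scale) of the 9 probes (horizontal axis) under each processing setting that keeps the direction of the values. Black bars are the centred values with a dye term, open circles are other settings with an adjusted p above 0.05, and red circles are those under 0.05, which occur at Hspa9 probe 733 only.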

How the data were processed

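For each of 1936 probes the deposited table gives the log ratio of both channels of an array, and 0 values are missing. What base the log has, and how the authors corrected and normalised the scans, is not given in the sources used here. The table has no spot intensity or depth, so probes could not be weighed by their signal. The number of arrays also limits the precision. Probes were named by the platform annotation, with symbols brought up to date through RefSeq (GRCr8) gene IDs: 1432 probes (958 genes) had 1 symbol, 19 several and 485 none, and 1429 matched a current ID. No gene coordinates are given because no build is named for the array.

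Array medians were subtracted. Per probe, limma 3.58.1 (R 4.3.3; lmFit, eBayes) fitted an operation and a dye term, and p-values were adjusted over all probes by Benjamini-Hochberg. Of the degrees of freedom, 2 come from a probe's own values and 76.2 from limma's prior, so an SE reflects the spread of the whole table more than that of the probe. Tested on simulated data, the fit gave the right sign to every changed probe but made more false calls than the threshold allows. Whether arrays shared an RNA extract is not in the labels. The p-values thus cover the spread among arrays of pooled RNA, which may be technical, and not that among animals.

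The 5 genes, the lists and the settings were chosen with earlier results of these data known. Named are all probes of the 5 genes, the measured genes of 3 lists and, per probe, the nearest other genes over the centred values. Other settings concerned centring, scaling, quantile normalization, the reading of the sign, the dye term, dye curves, block medians, the prior, averaged probes, a filter on extreme values and each array left out. With an array left out, limma gives every probe the same SE, and this SE is higher when array 1 or 3 is the one omitted. Blocks are 16 runs of consecutive probe numbers, of equal length.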

Additional observations from a re-analysis of the deposited data

How the results depend on the processing

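Over all probes, limma called 111 (18 higher, 93 lower), and 3 without centring (3 higher), 62 with equal scaling (15 higher, 47 lower), 12 after quantile normalization (9 higher, 3 lower), 7 with a dye curve per array (7 higher), 67 with a robust prior, 40 of 958 genes with probes averaged, and 1599 in the Cy5 over Cy3 reading. The dye curve per block gave 136 (71 higher, 65 lower) and block medians 87 (22 higher, 65 lower). Without the dye term it called 0 (5 at unadjusted p under 0.05), and ordinary least squares without moderation also 0 (94). Leaving out 1 array gave 12 to 241, with 12 without array 3 and 241 without array 4. The cause of these shifts was not tested, but limma's prior was 2.60 degrees of freedom without centring against 76.2 with it.

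Of the 9 probes, 0 passed in each setting that kept the direction and all 4 arrays and the whole table (limma and ordinary least squares; 0 to 2 at an unadjusted p under 0.05). Leaving out 1 array gave 0 or 1, the 1 being Hspa9 probe 733 without replicate 4 (-0.28, from -0.31 to -0.17 over the 4 fits). Without blocks 3 and 4, a setting chosen after seeing the data, that probe passed too (1 of 9, -0.27) and Hspa9 probe 571 had -0.018. In the Cy5 over Cy3 reading 7 passed. Hspa9 probe 733 had 0.71, probe 1912 0.75 and probe 571 -0.40; Dnaja2 had 0.78; Dnaja1 probe 1065 had 0.74 and probe 966 -0.48; Cryab probe 1650 had -0.45; Hsf1 had 0.011 and did not pass, nor did Cryab probe 1298. Read as sham over ligated, the estimates were -0.0095 for Hspa9 probe 571, 0.24 and 0.12 for probes 733 and 1912, 0.12 for Dnaja2, 0.022 and 0.0055 for Dnaja1, 0.024 and 0.11 for Cryab and 0.017 for Hsf1.

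Estimates near 0 changed sign without passing. Dnaja1 probe 1065 had 0.067 after quantile normalization, 0.051 with a dye curve per array and 0.036 per block; with that last curve Dnaja1 probe 966 had 0.0044 and Hsf1 0.0066. Hspa9 probe 571 had -0.016 with block medians. With 1 array left out, the ranges that cross 0 were -0.054 to 0.042 for Dnaja1 probe 1065, -0.020 to 0.039 for Hspa9 probe 571, -0.063 to 0.029 for Hsf1 and -0.080 to 0.031 for Cryab probe 1298. No paired analysis was possible because the labels give no separate groups with shared replicate numbers: each ratio already pairs a ligated with a sham pool on its array.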
